A study of Mus musculus with 12 samples.

Results

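The nuclear-encoded genes of the respiratory chain were examined in CD8+ T cells sorted from tumors by a reporter of the adenosine receptor A2AR, the product of Adora2a. They were the protein-coding genes whose symbols begin with Nduf, Uqcr, Atp5 or Cox4 to Cox8, together with Sdha, Sdhb, Sdhc, Sdhd and Cycs, and pseudogenes were left out. Of 94 genes in the table that match these names, 88 had 10 or more counts in at least 3 libraries and were kept, out of 52636 genes in all and 11598 protein-coding genes that reach the same minimum. The members comprised 36 complex I subunits, 8 complex I assembly factors (Ndufaf genes), 4 genes of complex II, 8 of complex III, cytochrome c, 14 of complex IV and 17 of complex V. Atp5s, counted with complex V by its symbol, is not a structural subunit of it. The rule uses names and counts and no fold change or p-value, although the members were chosen with earlier results of these data known. The mice carried a bacterial artificial chromosome transgene with eGFP at the start codon of Adora2a, on a C57BL/6 background, and bore subcutaneous AT3ova tumors, an ovalbumin-expressing line from a mouse mammary carcinoma, grown from 500000 injected cells in females of 6 to 16 weeks. The transgene was shared by all groups, so GFP+ and GFP- cells came from the same reporter strain and GFP reports the transgene rather than the endogenous receptor gene itself. CD8+ cells were sorted at day 21 as GFP+ or GFP- from non-treated mice and from mice given anti-PD-L1, an antibody against the ligand of the inhibitory receptor PD-1, at days 14 and 18. Each of the 4 conditions had 3 libraries, with the cells of 3 mice pooled into each.

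The respiratory chain passes electrons from NADH and succinate to oxygen and uses the energy to pump protons across the inner mitochondrial membrane. Complex I oxidises NADH, complex II oxidises succinate and is also an enzyme of the tricarboxylic acid cycle, complex III passes electrons from ubiquinol to cytochrome c, complex IV reduces oxygen, and complex V, the ATP synthase, uses the proton gradient to make ATP. A few core subunits are encoded by mitochondrial DNA and all others by the nucleus, so both genomes supply parts of complexes I, III, IV and V. T cells in tumors are known for altered mitochondrial mass and respiration, and PD-1 signaling is known to affect their metabolism.

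Promoters of respiratory chain genes are known to carry sites for NRF1, for ETS family factors such as GABP and for YY1. RefSeq promoter windows of 300 bases, from 250 bases before to 50 after the transcript start (GRCm38.p6), were found for 73 of the 88 members, and letters were searched on both strands. The NRF1 letters GCATGCGC were present in the windows of 13 members (17.8%) against 3.05% of all 27025 genes with a window. The ETS letters CCGGAAG were found in 18 members (24.7%) against 9.93%, and the YY1 letters AAGATGGCG in 8 members (11%) against 1.64%. At least one of these letter strings was in 32 members (43.8%) and in 13.6% of all genes. TATAAA went the other way, with 6.85% of members against 15.7%. The cAMP response letters TGACGTCA, which read the same on both strands, were in 5 members (6.85%, including Cycs and Uqcrfs1) against 2.03%, and CACGTG in 5 members against 8.09%. Members with the NRF1 letters had a median log2 fold change of 0.028 with anti-PD-L1 (averaged over GFP, 12 libraries) against 0.076 for those without, and the medians with and without were 0.10 and 0.060 for ETS and 0.081 and 0.069 for YY1, with no test. For GFP averaged over treatments the medians with and without were 0.063 and 0.017 for NRF1, 0.12 and -0.026 for ETS and 0.053 and -0.00094 for YY1. The genes with a window were not limited to those counted here, nor matched to the members in level or base composition. A gene with several windows was scored if any of them held the letters. A match describes letters in a window and is not a bound site. The 120 bases before the start of 1 member from each complex and of Cycs are shown because they carry these letters, in capitals, with NRF1 letters in Ndufa6, Sdhb and Cycs, ETS letters in Uqcr11, on the opposite strand in Cox6b1 and in Atp5j, and YY1 letters also in Atp5j.
Ndufa6 (chr15:82354292-82354411, minus strand): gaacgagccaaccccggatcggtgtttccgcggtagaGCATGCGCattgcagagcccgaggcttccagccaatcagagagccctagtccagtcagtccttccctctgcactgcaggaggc
Sdhb (chr4:140961151-140961270, plus strand): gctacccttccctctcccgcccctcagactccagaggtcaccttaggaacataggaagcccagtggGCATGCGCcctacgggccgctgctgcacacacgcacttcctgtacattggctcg
Uqcr11 (chr10:80406822-80406941, minus strand): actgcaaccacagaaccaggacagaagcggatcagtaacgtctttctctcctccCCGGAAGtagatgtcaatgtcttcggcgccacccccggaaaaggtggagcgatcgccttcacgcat
Cycs (chr6:50566570-50566689, minus strand): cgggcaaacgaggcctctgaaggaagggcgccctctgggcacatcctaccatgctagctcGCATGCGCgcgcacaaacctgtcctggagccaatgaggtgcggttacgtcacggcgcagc
Cox6b1 (chr7:30626115-30626234, minus strand): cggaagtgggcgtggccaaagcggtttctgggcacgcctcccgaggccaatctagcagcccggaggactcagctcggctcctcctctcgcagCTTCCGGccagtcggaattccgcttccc
Atp5j (chr16:84834977-84835096, minus strand): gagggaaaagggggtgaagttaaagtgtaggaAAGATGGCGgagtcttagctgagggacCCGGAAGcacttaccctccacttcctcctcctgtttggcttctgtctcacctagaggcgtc

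Between 11292699 and 19023900 reads were counted on genes per library, and the 88 members together took 10328 to 11698 CPM (counts relative to the library's total, scaled by the trimmed mean of M-values, TMM). Reads come from transcript 3′ ends, so CPM are not divided by transcript length and levels are compared between libraries, not between genes. In such bulk samples fewer cells of a type and less RNA per cell cannot be told apart. The libraries KT13 (non-treated GFP+) and KT21 (anti-PD-L1 GFP+) stood apart from the others, with sample weights in limma of 0.348 and 0.229 against 0.718 to 1.89 elsewhere, and results are given with all 12 libraries and with the 10 others. The paper shows fewer GFP+ libraries than the labels list, and which ones it used is not given in the sources used here. CD8 T cell genes (Cd3d, Cd3e, Cd3g, Cd8a, Cd8b1, Trac and Trbc2) summed to 4539.9 to 4643 CPM in non-treated GFP- libraries, 3867 to 4233 in non-treated GFP+, 5116 to 5362 in anti-PD-L1 GFP- and 4633 to 6016 in anti-PD-L1 GFP+ libraries, and Cd4 was at most 0.919 CPM. The 8 macrophage and monocyte markers summed to 125 to 191 and 178 to 233 CPM in non-treated GFP- and GFP+ libraries. After anti-PD-L1 the sums were 68.6 to 109 and 73.5 to 142 CPM. With treatment averaged over GFP all 8 had a log2 fold change below 0, with Lyz2 and C1qa called over all 12 libraries. In GFP- and GFP+ cells taken alone 8 of 8 and 6 of 8 lay below 0, with none called over 12 libraries. Over 10 libraries C1qa was called as lower in both (log2 fold change -0.97 in GFP- and -1.14 in GFP+ cells). Lyz2 was called in GFP- cells (-1.68), and averaged over GFP C1qa, Lyz2 and Csf1r were called. The 4 epithelial markers of the tumor line summed to 15.1 to 29.8, 24.9 to 32.0, 7.84 to 18.4 and 8.37 to 20.2 CPM in the same order of conditions, with Krt19 at 0 in 9 of the 12 libraries, and the 3 NK cell markers to 54.1 to 62.0, 80.6 to 93.8, 47.0 to 47.7 and 74.6 to 88.4 CPM. The fibroblast markers summed to 4.35 to 42.1, 12.2 to 64.3, 0.214 to 10.3 and 0.444 to 12.2 CPM and the hemoglobin genes to 240.1 to 533, 246 to 492, 172 to 261 and 116 to 336 CPM in that order, while the B cell markers Ms4a1 and Cd79a were below 1 CPM throughout and Cd79b was at 1.52 to 7.13 CPM, with a log2 fold change of 0.59 between GFP+ and GFP- cells averaged over treatments (adjusted p = 0.632 in edgeR). Their part in the results below was not tested.

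Outside KT13 and KT21, most members above 10 CPM differed little between libraries. No share of other genes is set beside these counts. Of the 82 members with a mean over 10 CPM, 70 had a highest value under 1.5 times the lowest among the 10 libraries other than KT13 and KT21, and 79 stayed under 2 times, with a median ratio of 1.32. The 6 members at or under 10 CPM were the assembly factors Ndufaf1, Ndufaf2 and Ndufaf6, the tissue-restricted isoforms Cox6b2 (known from testis) and Cox7a1 (known from heart and muscle), and Atp5s. Cox6b2 and Cox7a1 were just inside the count minimum, each with 10 or more counts in 8 libraries and at most 17 and 28 counts in any. Just outside it was Cox6a2, the heart and muscle isoform of Cox6a1, with 10 or more counts in 2 libraries, followed by Cox4i2, Ndufa4l2 and Cox8b with at most 4, 6 and 3 counts, and by Cox7b2 and Cox8c with 0 counts in all libraries. Their widely expressed counterparts were well counted in all libraries, with Cox4i1 at 184 to 305 CPM and Cox6a1 at 173 to 228 CPM.

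Within complex I, 29 of 36 members above 10 CPM had a highest value under 1.5 times the lowest in the 10 libraries other than KT13 and KT21, and the largest ratio was 1.78 for Ndufb3. The core subunits that hold the flavin and the iron-sulfur clusters were counted in every library. Ndufv1, which binds NADH and the flavin, lay between 52.8 and 108 CPM, and Ndufv2, which holds a 2Fe-2S cluster, between 49.5 and 63.2 CPM. Ndufs1, the largest subunit of the electron input module, ranged from 43.2 to 56.5 CPM. The highest Ndufv1 value belonged to KT21, whereas Ndufv2 and Ndufs1 had no library far from the rest. Ndufs3 of the ubiquinone-reducing module ranged from 46.0 to 67.0 CPM, and the iron-sulfur subunits Ndufs7 and Ndufs8 from 34.2 to 68.3 and from 26.4 to 45.6 CPM.

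In complex II, 3 of 4 members above 10 CPM had a highest value under 1.5 times the lowest in the 10 libraries other than KT13 and KT21, and the largest ratio was 6.94 for Sdhd. The flavin subunit Sdha ranged from 89.9 to 122 CPM and the iron-sulfur subunit Sdhb from 138 to 218 CPM, while the membrane anchors Sdhc and Sdhd had a wider range, from 20.1 to 80.7 and from 0.910 to 34.3 CPM. The lowest values of both anchors belonged to KT21.

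In complex III, 8 of 8 members above 10 CPM had a highest value under 1.5 times the lowest in the 10 libraries other than KT13 and KT21, and the largest ratio was 1.42 for Uqcr11. The core proteins Uqcrc1 and Uqcrc2 ranged from 62.1 to 95.9 and from 53.9 to 99.9 CPM and the Rieske iron-sulfur protein Uqcrfs1 from 35.1 to 81.5 CPM. The small subunits Uqcrh, Uqcrb, Uqcrq, Uqcr10 and Uqcr11 had lowest and highest values of 235 to 372, 92.8 to 123, 125 to 169.7, 80.7 to 124 and 40.1 to 62.6 CPM. Cycs, the mobile electron carrier cytochrome c, ranged from 151 to 224 CPM, with KT21 and KT13 as its 2 highest libraries.

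In complex IV, 11 of 12 members above 10 CPM had a highest value under 1.5 times the lowest in the 10 libraries other than KT13 and KT21, and the largest ratio was 1.58 for Ndufa4. The structural subunits Cox5a and Cox5b ranged from 212 to 279 and from 142 to 229 CPM. Cox6c and Cox7c, small membrane subunits, ranged from 388 to 482 and from 138 to 569 CPM, and the low end of Cox7c came from KT13 and KT21. Ndufa4, a complex IV subunit despite its name, ranged from 18.6 to 60.9 CPM. Cox6b1, Cox7a2, Cox7a2l (a factor in supercomplex assembly), Cox7b and Cox8a ranged from 125 to 174, from 183 to 278, from 239 to 319, from 131 to 213 and from 240.4 to 397 CPM.

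In complex V, 16 of 16 members above 10 CPM had a highest value under 1.5 times the lowest in the 10 libraries other than KT13 and KT21, and the largest ratio was 1.49 for Atp5mpl. The catalytic subunits Atp5a1 and Atp5b ranged from 245 to 304 and from 265 to 320.1 CPM. The central stalk genes Atp5c1, Atp5d and Atp5e ranged from 194 to 255, from 115 to 280.2 and from 136 to 221 CPM, and the c-ring genes Atp5g1, Atp5g2 and Atp5g3, which encode the same mature protein, from 48.0 to 92.9, from 209 to 325 and from 210.4 to 397 CPM. The peripheral stalk genes Atp5f1 and Atp5o ranged from 134 to 205 and from 169 to 204 CPM. By the SD of the log2 condition means, with KT13 and KT21 included, the member that varied most was Ndufa1 among complex I subunits, Ndufaf2 among the assembly factors, Sdhd in complex II, Uqcrfs1 in complex III, and the low-count genes Cox7a1 and Atp5s in complexes IV and V. Without the pair of libraries they were Ndufa12, Ndufaf2, Sdhd, Uqcr11, Cox7a1 and Atp5s in the same order.

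The summed level of the members was 10759.6 ± 230.4 CPM (mean ± SD, n = 3) in non-treated GFP- cells, 10654 ± 283 in non-treated GFP+ cells, 11120.3 ± 203 in anti-PD-L1 GFP- cells and 11389 ± 275 in anti-PD-L1 GFP+ cells. Without KT13 and KT21 the GFP+ means were 10564 ± 334 and 11235 ± 92.7 CPM (n = 2). The sums of GFP+ and GFP- libraries overlapped in both treatments for all 12 libraries, the lowest anti-PD-L1 library, at 10887 CPM, was below the highest non-treated library, at 10993 CPM, and in GFP+ cells the 3 anti-PD-L1 libraries lay above the 3 non-treated ones. By complex, the complex IV sum was 2898 ± 57.6, 2752 ± 123, 3048 ± 108 and 3006 ± 114 CPM and the complex I subunit sum 2769 ± 66.7, 2781 ± 142, 2852 ± 68.2 and 2926 ± 158 CPM in the same order of conditions. Complex III summed to 873 ± 30.1, 864 ± 30.6, 916 ± 36.9 and 954 ± 47.9 CPM and complex V to 3605 ± 113, 3608 ± 118, 3663 ± 14.4 and 3813 ± 172 CPM. No sum was tested, since the members were chosen with earlier results known.

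**Figure D1:**
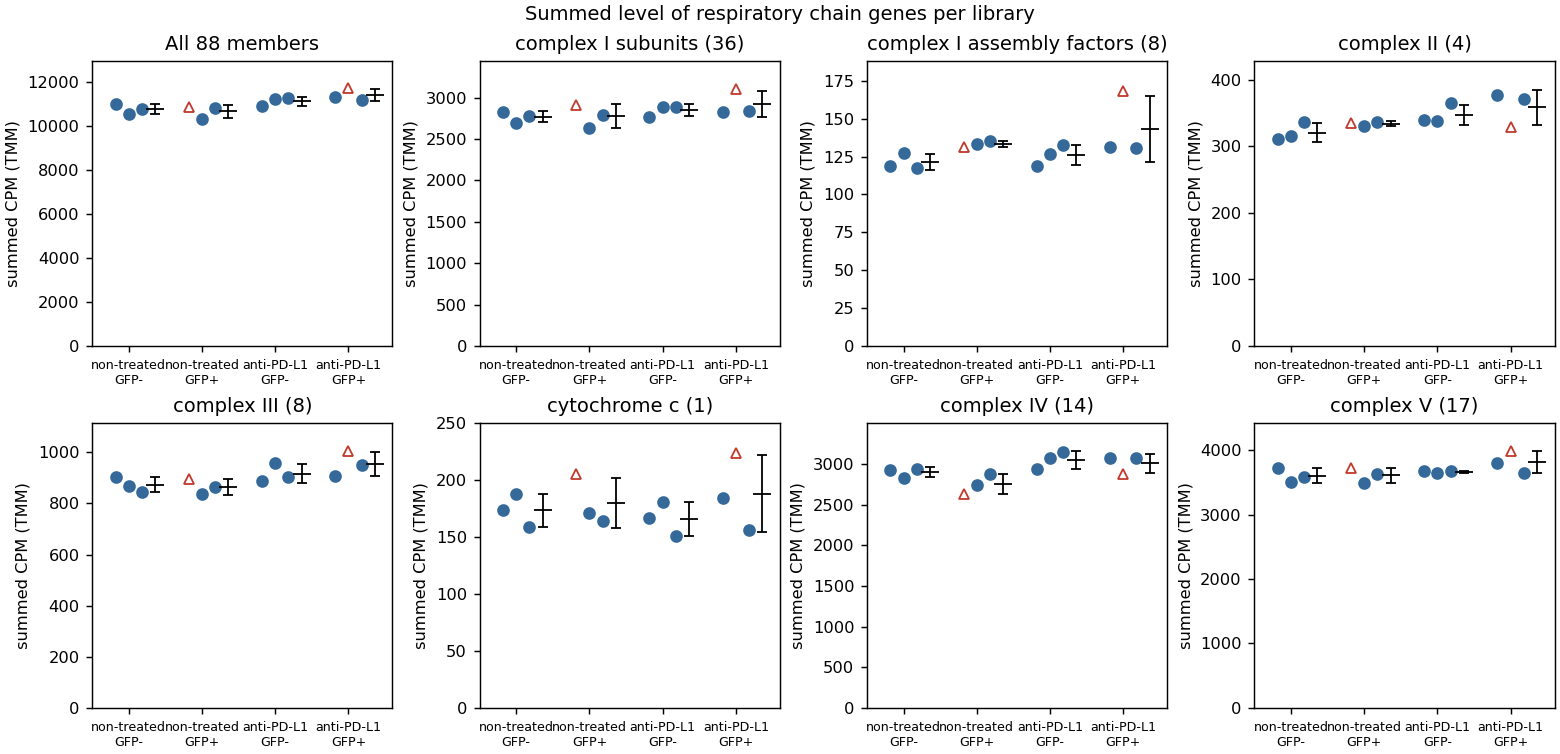
Summed TMM CPM of all 88 members and of each complex (number of members in brackets) in every library, by condition, with bars for the mean and SD of 3 libraries. Open triangles are KT13 and KT21. The condition means of all members ran from 10654 to 11389 CPM.

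No member was called in any comparison, with all 12 libraries or with 10, at an adjusted p under 0.05 in edgeR's quasi-likelihood test. The first comparison asked whether GFP+ cells, which report A2AR, differ from GFP- cells in non-treated tumors. Over 12 libraries, 1 member had an unadjusted p under 0.05 (Ndufaf2, higher), where 6.05% of 14173 genes had one and 0.00706% were called. Over 10 libraries 6 members did, 2 higher and 4 lower, against 9.24% of 14747 genes, of which 0.339% were called. The median log2 fold change of the members was -0.020 with 12 libraries and -0.048 with 10, against 0.0024 for all genes with 12, and 36 members lay above 0 and 52 below, or 31 and 57 with 10. The sign of this median was not stable, and it lay above 0 with upper-quartile scaling, among genes that reach 10 counts in all libraries, and without KT14 or KT15. Values of a condition are given in the order of the library codes, so that KT13 comes first among non-treated GFP+ libraries and KT21 second among anti-PD-L1 GFP+ libraries.

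The member with the smallest unadjusted p among those whose 3 GFP+ libraries lay below all 3 GFP- libraries was Uqcrb, a small subunit of complex III near the ubiquinone site. Uqcrb was at 113, 123 and 105 CPM in GFP- and 92.8, 93.8 and 92.8 CPM in GFP+ libraries, KT13 included, so its groups did not overlap (log2 fold change -0.29 ± 0.14 (SE), adjusted p = 0.833 in edgeR). Ndufv3, an accessory subunit of the NADH-binding module, was at 80.8, 82.5 and 95.4 and 73.3, 71.5 and 67.7 CPM (log2 fold change -0.28 ± 0.15 (SE), adjusted p = 0.862). Ndufs5, Ndufb5, Ndufaf3 and Uqcrc1 were also separated downward, and Ndufa2, Sdhb and Ndufaf8 upward. These 6 lower and 3 higher members compare with 6.63% and 6.19% of all genes separated in those directions. With the 2 remaining GFP+ libraries, 14 members were separated downward and 6 upward, against 12.9% and 12.3% of genes. Sdhb was at 144, 138 and 149 CPM in GFP- and 179, 161 and 155 CPM in GFP+ libraries (log2 fold change 0.20 ± 0.15 (SE), adjusted p = 0.90), and Ndufaf8, an assembly factor of complex I, at 40.5, 50.9 and 53.5 and 54.3, 59.5 and 62.6 CPM (log2 fold change 0.28 ± 0.17 (SE), adjusted p = 0.877). Their 95% intervals included 0. Ndufs7, the iron-sulfur subunit next to the ubiquinone site, showed how far KT13 decided a value. It was at 52.5, 48.9 and 47.8 CPM in GFP- and 68.3, 34.2 and 38.1 CPM in GFP+ libraries, and its log2 fold change was -0.088 with 12 libraries and -0.46 (unadjusted p = 0.00708, adjusted p = 0.304) with 10. Sdhd moved from 0.54 to 1.07 (adjusted p = 0.367) when the pair of libraries was left out, with 4.94, 18.2 and 10.2 CPM in GFP- and 1.51, 20.6 and 26.2 CPM in GFP+ libraries. Ndufaf2, an assembly factor of low count, was at 3.01, 7.36 and 6.49 and 12, 6.27 and 11.2 CPM (log2 fold change 0.80 ± 0.37 (SE), adjusted p = 0.818). Some genes on the cell type marker lists differed with GFP as well. Klrb1c, which encodes NK1.1, was called as higher in GFP+ cells averaged over treatments (log2 fold change 1.26 ± 0.16, adjusted p = 0.00406 in edgeR). It was the 1 called of the 3 NK cell markers, of which 3 lay above 0 over 12 libraries and 2 over 10 in this average. In non-treated cells taken alone 2 of the 3 lay above 0 in both sets. Eomes overlapped there, at 34.5, 28.0 and 31.3 CPM in GFP- and 39.3, 26.5 and 28.0 CPM in GFP+ libraries. Of the 8 macrophage markers, 5 lay above 0 in non-treated cells and 8 averaged over treatments, with none called over 12 libraries. Over 10 libraries Cd8a and Cd8b1 were called as lower in non-treated GFP+ cells, with log2 fold changes of -0.47 and -0.69. The part of these markers in the members' values was not tested. By complex, the members' medians ran from -0.077 (complex IV, 3 of 14 above 0) to 0.090 (complex II, 2 of 4 above 0).

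After anti-PD-L1, GFP+ cells were again set against GFP- cells. No member had an unadjusted p under 0.05 with 12 or with 10 libraries, where 4.08% and 5.34% of all genes had one and 0.0282% and 0.17% were called. The members' median log2 fold change was 0.043 with 50 of 88 above 0, and 0.0079 with 46 above 0 when KT13 and KT21 were left out. Atp5mpl, a small membrane subunit of ATP synthase, and Cox7a2, the widely expressed form of a complex IV subunit, were separated upward, and Atp5f1, Cox5a and Ndufv2 downward, against 5.31% and 5.33% of all genes. Atp5mpl was at 154, 166 and 163 CPM in GFP- and 171, 199 and 194 CPM in GFP+ libraries (log2 fold change 0.23 ± 0.14 (SE), adjusted p = 0.993). Atp5f1, the b subunit of the peripheral stalk, was at 185, 198 and 205 and 184, 134 and 171 CPM (log2 fold change -0.27 ± 0.15 (SE), adjusted p = 0.993). With 10 libraries 5 members were separated upward and 6 downward, against 11.4% and 10.6%. Several of the larger differences rested on KT21. Atp5d, the delta subunit of the central stalk, was at 117, 141 and 115 CPM in GFP- and 133, 280.2 and 129 CPM in GFP+ libraries, and its log2 fold change went from 0.54 to 0.078 without KT13 and KT21. Ndufv1 went from 0.41 to 0.12, Cox8a from 0.33 to 0.13, Ndufa8 from -0.30 to -0.12 and the core protein Uqcrc2 from -0.32 to -0.13.

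Anti-PD-L1 was then compared with no treatment in GFP+ cells, where 67 of the 88 members lay above 0 and 21 below, with a median log2 fold change of 0.094 against -0.0065 for all genes tested. With 10 libraries 68 lay above 0 and the median was 0.065. The members are not independent of each other, and no single one was called. The members with an unadjusted p under 0.05 numbered 3 with 12 libraries (Ndufaf3, Ndufv1 and Atp5mpl) and 6 with 10 (Atp5mpl, Ndufb5, Cox7b, Uqcrb, Sdha and Cox5a), all higher. Of all genes, 6.74% and 8.54% had such a p and 0.0141% and 0.563% were called. Atp5mpl was the 1 member in both counts, at 169, 130.1 and 154 CPM in non-treated and 171, 199 and 194 CPM in anti-PD-L1 libraries (log2 fold change 0.32 ± 0.14 (SE), adjusted p = 0.726), or 0.36 ± 0.13 with 10 libraries (adjusted p = 0.390). Its lowest treated library stood above its highest non-treated one. Uqcrb, at 92.8, 93.8 and 92.8 and 117, 100.5 and 113 CPM, was likewise separated (log2 fold change 0.24 ± 0.14 (SE), adjusted p = 0.829). Atp5l, the g subunit of ATP synthase, was at 266, 316 and 327 and 353, 366 and 383 CPM (log2 fold change 0.28 ± 0.15 (SE), adjusted p = 0.805). Reads of Atp5l may be shared with its processed pseudogenes.

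In all, 7 members were separated upward (Atp5g1, Atp5l, Atp5mpl, Ndufaf1, Ndufv1, Ndufv3 and Uqcrb) and 2 downward (Ndufa10 and Ndufaf4), against 4.66% and 5.67% of all genes. With 2 libraries against 2, 34 members were separated upward and 6 downward, and 19.6% and 19.5% of all genes were. Cox5a, a structural subunit of complex IV, was at 272, 212 and 224 CPM in non-treated and 271, 222 and 253 CPM in anti-PD-L1 libraries, where KT13 had the highest value of the 6 and KT21 was below the other treated libraries. Its log2 fold change was 0.074 with 12 libraries and 0.27 with 10 (adjusted p = 0.571). Ndufv1 moved in the other sense, from 0.49 to 0.16, its values being 52.8, 59.2 and 56.6 and 67.2, 108 and 62.0 CPM. All 14 complex IV members lay above 0 with 10 libraries, 2 against 2 (median 0.13), and 12 of 14 with 12 libraries (median 0.15). The 14 include Cox7a1 and Cox6b2, with at most 28 and 17 counts in any library. No share of all genes above 0 is set beside these counts by complex. All 4 complex II genes lay above 0 in both sets, with medians of 0.12 and 0.21. Complex III had 6 of 8 above 0 with 12 libraries and 7 with 10, and complex V 13 and 14 of 17.

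In GFP- cells, which hold neither KT13 nor KT21, the 3 anti-PD-L1 libraries were set against the 3 non-treated ones. Here 56 members lay above 0 and 32 below, with a median log2 fold change of 0.034. No member had an unadjusted p under 0.05 in the fit of 12 libraries. In the fit of 10, in which the spread between libraries was smaller, 3 higher members (Ndufa1, Cox5a and Sdhd) and 1 lower (Ndufs7) did. All genes with such a p made up 3.44% and 7.22%, and 0% and 0.373% were called. Of the members, 9 were separated upward and 1 downward, against 6.08% and 6.26% of all genes. Those upward were Cox4i1, Cox5a, Cox7b and Cox7c of complex IV, Ndufa1, Ndufa7 and Ndufv2 of complex I, and Uqcrfs1 and Uqcrh of complex III. Cox5a was at 235, 261 and 216 CPM in non-treated and 278, 279 and 274 CPM in anti-PD-L1 libraries (log2 fold change 0.22 ± 0.15 (SE), adjusted p = 1). Cox4i1, the subunit through which ATP is known to regulate complex IV, was at 214, 204 and 201 and 247, 244 and 217 CPM (log2 fold change 0.19 ± 0.19 (SE), adjusted p = 1). In both genes every treated library was above every non-treated one, and neither passed the test. Ndufa1, a small subunit needed for assembly of the membrane arm of complex I, was at 84.0, 89.9 and 86.1 and 104, 96.8 and 116 CPM, with log2 fold changes of 0.29 (adjusted p = 1) and 0.29 (adjusted p = 0.584) in the fits of 12 and 10 libraries. Ndufs7 was the 1 member separated downward, at 52.5, 48.9 and 47.8 and 37.7, 45.5 and 37.5 CPM (log2 fold change -0.31 ± 0.25 (SE), adjusted p = 1).

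**Figure D2:**
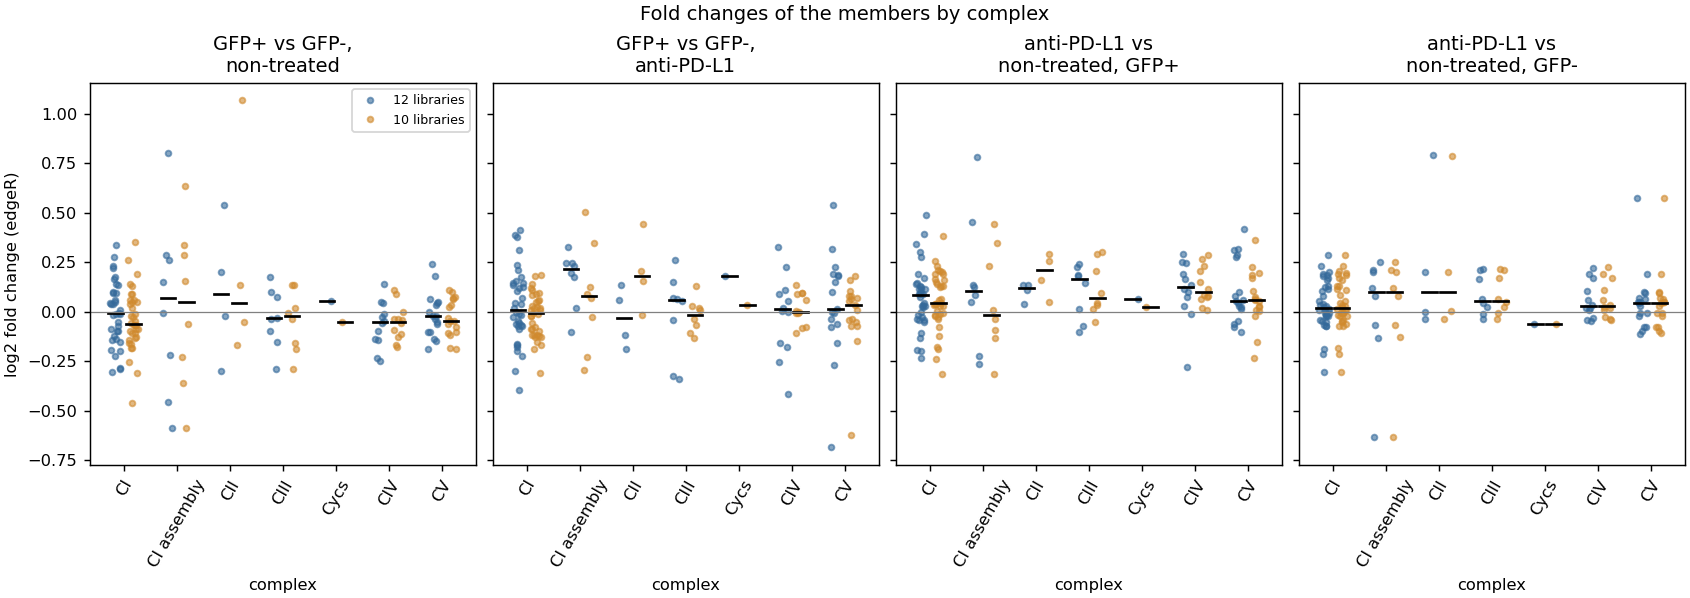
Log2 fold change of each member (points) and the median of each complex (black lines) in the 4 comparisons, with 12 libraries in blue and 10 in orange. Cox7a1 and Cox6b2, of about 1 CPM or less, are left out of the plot. Most points lie within 0.5 of 0, and in GFP+ cells after anti-PD-L1 the median of every complex lies above 0 with 12 libraries.

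Averaged over GFP, the anti-PD-L1 comparison had 70 members above 0 and 18 below, where 48.8% of all genes lay above 0, a median log2 fold change of 0.072, and no member with an unadjusted p under 0.05, against 7.67% of all genes and 0.395% called. With 10 libraries 66 lay above 0, the median was 0.061 and 7 members had such a p, all higher, against 11.2% of genes and 1.36% called. They were Cox5a, Cox4i1 and Cox7b of complex IV, Ndufa1 and Ndufb5 of complex I, Uqcr11 of complex III and Atp5f1 of complex V. Cox5a had the smallest adjusted p of all members, with a log2 fold change of 0.25 ± 0.080 and an adjusted p of 0.163, and it was 0.15 ± 0.10 (adjusted p = 0.858) with 12 libraries. All 8 complex III genes and all 4 complex II genes lay above 0 in both sets, and 13 of 14 complex IV genes. Averaged over treatments, the GFP comparison had 45 members above 0 and 43 below with 12 libraries, and 41 and 47 with 10, with medians of 0.015 and -0.0056. Here 2 members (Ndufaf8 and Ndufaf2, both higher) and 4 members (Sdhd and Ndufaf8 higher, Ndufaf3 and Ndufv3 lower) had an unadjusted p under 0.05, against 8.18% and 10.3% of genes, with 0.31% and 1.08% called. The interaction asks whether the difference between GFP+ and GFP- cells changed with treatment. With 12 libraries no member had an unadjusted p under 0.05, and with 10 Ndufs7 (0.52) and Atp5mpl (0.37) did, with an adjusted p of 1 for each, against 2.08% and 4.29% of all genes and 0% of genes called in either set. The median interaction was 0.046 and 0.035. The comparisons within GFP groups and within treatments share libraries and are not independent of each other.

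Markers of other cells moved with the treatment that these values describe. Averaged over GFP, all macrophage, tumor, fibroblast and hemoglobin genes listed had a log2 fold change below 0 with anti-PD-L1 over 12 libraries. Their medians were -0.98, -1.07, -2.27 and -0.61. Only Lyz2 and C1qa were called over 12 libraries, and Csf1r and the fibroblast gene Dcn were added over 10. No tumor marker or hemoglobin gene was called in either set. The CD8 T cell genes had a median log2 fold change of 0.27, with 7 of 7 above 0 and none called over 12 libraries. Over 10 libraries it was 0.23, with Cd8a and Cd3g called. Their part in the members' values was not tested.

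**Figure D3:**
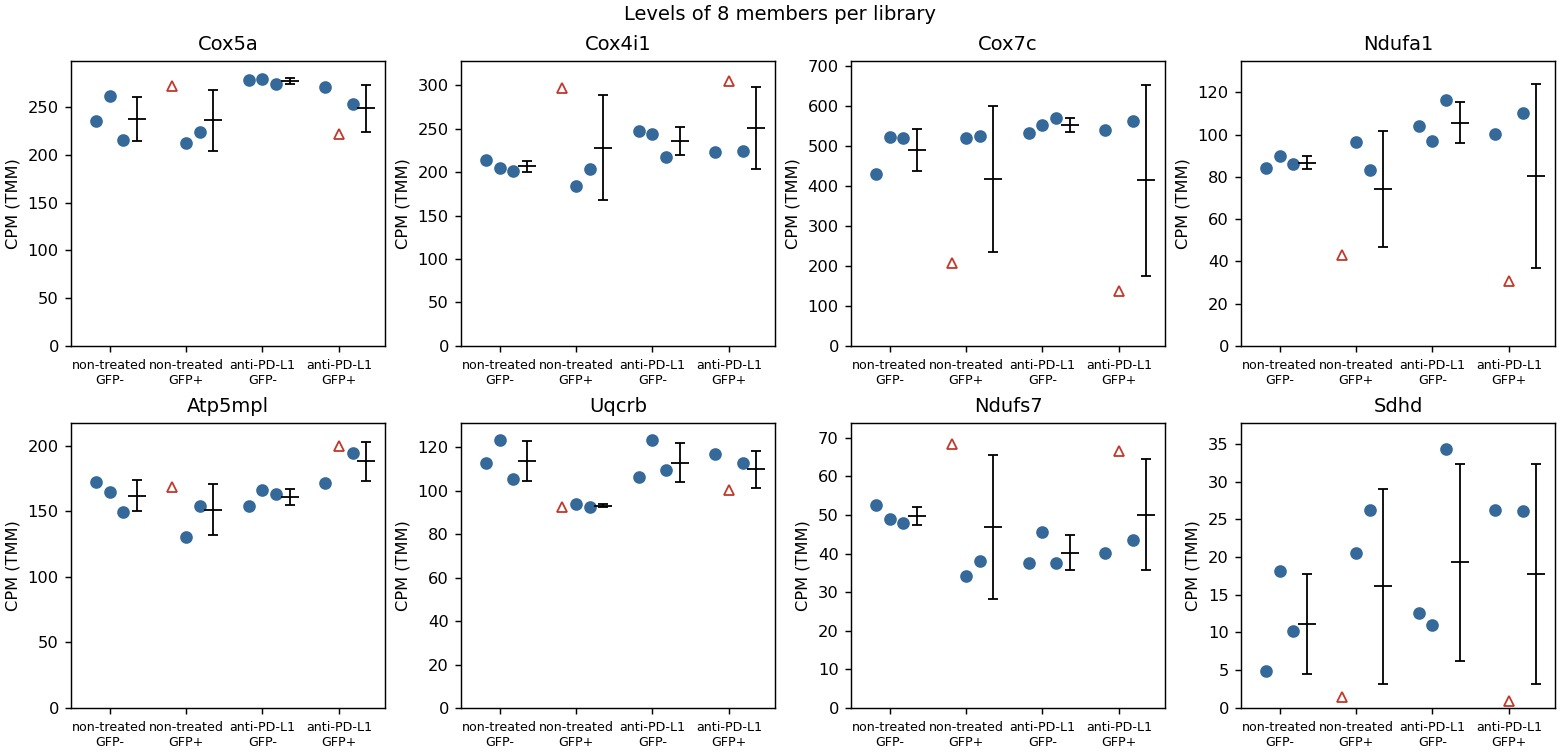
TMM CPM of 8 members in each library, by condition, with bars for the mean and SD of 3 libraries, and open triangles for KT13 and KT21. Cox5a lies above its non-treated values in all 3 anti-PD-L1 GFP- libraries, and Cox7c, Ndufa1 and Sdhd have their lowest values in KT13 and KT21.

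The intervals show which differences these libraries could have resolved. In the comparison of GFP+ with GFP- cells of non-treated tumors, 60 of 88 members had a 95% interval that lay within a 1.5-fold change in either direction and 77 within a 2-fold change, against 21.4% and 52.6% of all genes. These shares are not of genes matched in level to the members, of which 82 had a mean over 10 CPM. After anti-PD-L1 these numbers were 55 and 78. For the treatment in GFP+ cells they were 56 and 79, and in GFP- cells 60 and 79. With 10 libraries the members within 1.5-fold numbered 74, 77, 70 and 78 in the same order of comparisons. Members whose intervals passed 2-fold included Sdhd, Cox7a1 and Cox6b2.

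Libraries of the same condition also differed. KT13 and KT21, 1 library from each GFP+ condition, departed from the median of the other 10 libraries by more than 1.5-fold in 11 and 22 members, against at most 5 in any other library. These are 12.5% and 25% of members, beside 26.6% and 31.7% of 6882 other genes with a mean above the 0.1 quantile of the members' means. The 8 members that departed in both libraries were 8 of 11 in KT13 and 8 of 22 in KT21, and they are named for that reason. Below the median of the other libraries by over 1.5-fold in both were Sdhd, Cox7c, Ndufb3, Ndufa1, Sdhc and Ndufaf6, above it in both were Ndufa13 and Ndufs7, and none went opposite ways. Across the 88 members the log2 deviations of the pair of libraries had a Spearman correlation of 0.638, and across the 6882 other genes 0.601, both measured against the same 10 libraries and given as descriptions. Sdhd was at 1.51 and 0.910 CPM in KT13 and KT21 and at 4.94 to 34.3 CPM elsewhere. Cox7c was at 208 and 138 CPM against 429 to 569, and Ndufb3, an accessory subunit of the membrane arm, at 36.7 and 32.2 CPM against 81.3 to 145. Ndufa13, also known as GRIM-19, was at 264 and 253 CPM against 131 to 174.

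The departures of the members were set beside the base composition of their transcript ends. The last 300 bases of the members' annotated transcripts held 29.3% to 58.7% G+C, with a median of 47.2%. The 6 members low in both libraries had a median of 38.0%, although Sdhc was at 54.0%, and the 2 high in both had 55.0% and 56.2%. Across members the Spearman correlation of the deviation with this G+C content was 0.475 in KT13 and 0.577 in KT21, and between -0.278 and 0.399 in the other libraries, the highest of these being KT14. Across the 6882 other genes it was 0.169 in KT13, inside the range of -0.196 to 0.237 of the other 10 libraries, and 0.330 in KT21, above it. Members share the library and its depth, so no p is given. In a fit from which a smooth trend with G+C had been taken out of every library, no member was called either, with 12 or 10 libraries. What sets KT13 and KT21 apart was not tested.

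**Figure D4:**
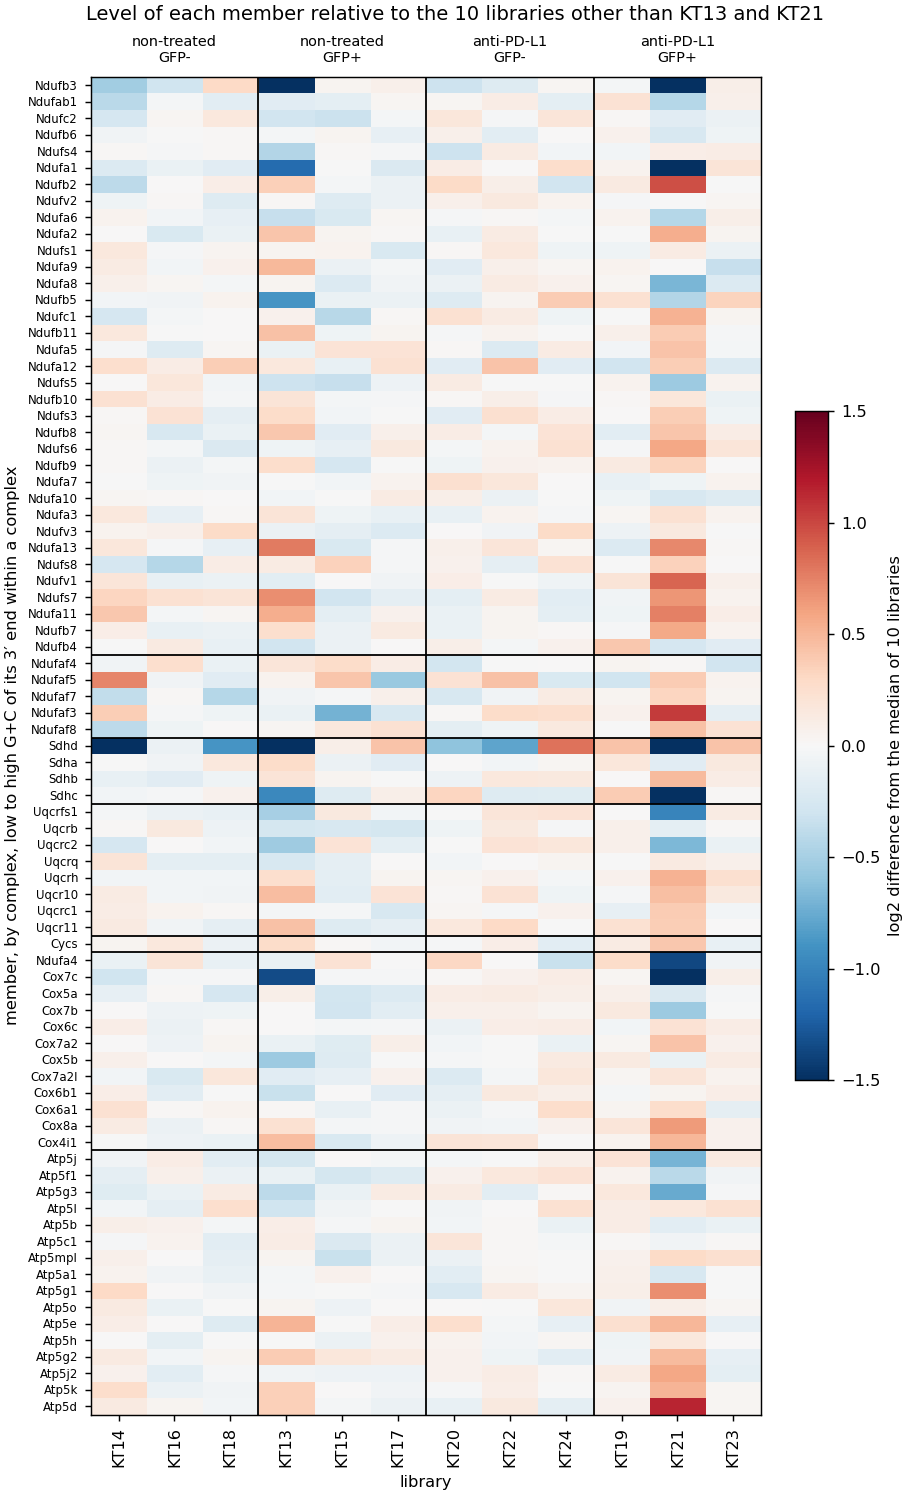
Log2 difference of the members with a mean over 10 CPM (1 left out) from the median of the 10 libraries other than KT13 and KT21, after adding 0.5 CPM, with libraries by condition and members by complex, ordered within a complex from low to high 3′-end G+C; the colors stop at 1.5. The columns KT13 and KT21 carry most of the strong colors, and Sdhd varies in further libraries.

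**Figure D5:**
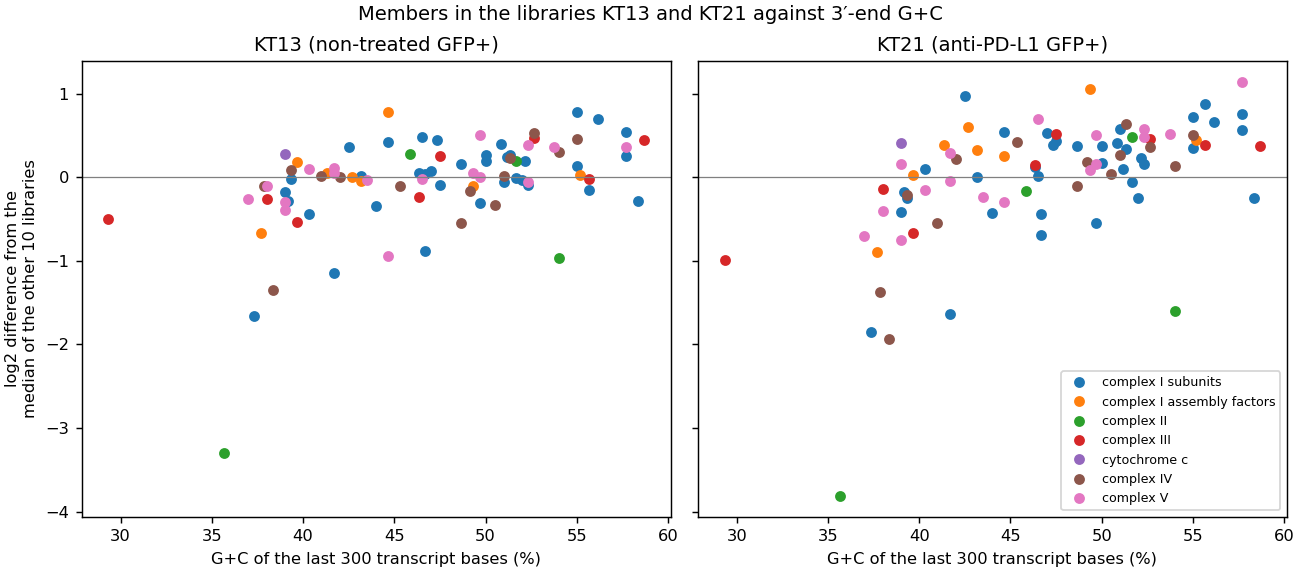
Log2 difference of each member in KT13 (left) and KT21 (right) from the median of the other 10 libraries against the G+C of its last 300 transcript bases, colored by complex. Members of low G+C tend to lie below 0 in both libraries, with Sdhd lowest.

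Related gene lists gave a frame for the members. The 13 subunits encoded by mitochondrial DNA were all tested and none was called. After anti-PD-L1, 12 of 13 were above 0 in GFP+ against GFP- cells with a median log2 fold change of 0.29, and 13 of 13 with 0.26 over 10 libraries, where the nuclear members had 0.043 and 0.0079. In non-treated cells the mitochondrial medians were -0.012 and 0.091. Averaged over treatments, the GFP medians were 0.14 with 11 of 13 above 0 over 12 libraries, and 0.21 with 13 of 13 over 10. Here 3 and 8 of the 13 had an unadjusted p under 0.05 in edgeR, against 8.18% and 10.3% of all genes. In treated mice taken alone 2 and 7 did, against 4.08% and 5.34%, and in non-treated mice 0 and 3, against 6.05% and 9.24%. For the treatment itself at most 1 did in any comparison. With anti-PD-L1 in GFP- cells, 11 of 13 mitochondrial subunits lay below 0 (median -0.14), while 56 of 88 nuclear members lay above 0. In GFP+ cells 10 of 13 mitochondrial subunits lay above 0 with anti-PD-L1 (median 0.10), and 8 of 13 over 10 libraries (median 0.013), where 67 and 68 nuclear members did. The mitochondrial transcripts come from shared precursors and move together within a library, so their count is not a count of independent genes. mt-Nd4, a proton-pumping subunit of complex I, was at 2226, 2362 and 3404 CPM in anti-PD-L1 GFP- and 3415, 3263 and 3399 CPM in anti-PD-L1 GFP+ libraries, with the groups overlapping. Of 18 tricarboxylic acid cycle genes none was called, with medians between -0.11 and -0.011 in the 4 comparisons of 12 libraries. Of 77 mitochondrial ribosomal protein genes tested none was called, with medians between -0.0034 and 0.092. Among 12 regulators of mitochondrial biogenesis tested, none was called over 12 libraries. Over 10 libraries, where 1.08% of all genes were called, Myc was higher in GFP+ cells averaged over treatments (log2 fold change 0.87 ± 0.19, adjusted p = 0.0189 in edgeR). Its levels were 9.19, 13.9 and 16.2 and 11.4, 6.49 and 9.81 CPM in the GFP- and 21.7, 25.5 and 21.0 and 20.4, 5.76 and 14.1 CPM in the GFP+ libraries, non-treated before anti-PD-L1, with KT21 lowest of all.

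Of 40 assembly factors outside the name rule, 1 was called, and over 10 libraries only. Cox17, a copper chaperone that serves complex IV, was at 79.1, 84.8 and 88.7 CPM in non-treated GFP- and 122, 121 and 124 CPM in anti-PD-L1 GFP- libraries, so that each treated library exceeded each non-treated one. In GFP+ cells it was at 47.2, 67.0 and 59.6 CPM without and 104, 20.6 and 102 CPM with anti-PD-L1, where KT13 and KT21 held the lowest value of each condition. Over 10 libraries its log2 fold change with anti-PD-L1 in GFP- cells was 0.54 ± 0.11, with an adjusted p of 0.0240 in edgeR. The GFP+ value was 0.70 ± 0.14, with an adjusted p of 0.0110. Averaged over GFP it was 0.62 ± 0.089 (adjusted p = 0.000163), and over 12 libraries 0.46 ± 0.28 (adjusted p = 0.807). Of all 14747 genes, 0.373%, 0.563% and 1.36% were called over 10 libraries in GFP- cells, in GFP+ cells and averaged over GFP. In the same fit the complex IV members above 10 CPM had smaller values, with Cox5a at 0.25 and Cox4i1 at 0.20 as the highest of them, and the call for Cox17 depended on leaving out the pair of libraries. The difference in change between Cox17 and these members was not tested.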

How the data were processed

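The authors deposited 1 table of raw read counts per Ensembl gene for the 12 libraries. According to the methods and the submitters' processing notes, QuantSeq 3′ libraries were sequenced, trimmed with cutadapt (1.7 in the notes), and aligned with HISAT2 to mm10, and featureCounts (Subread 1.6.4 in the notes) assigned them to genes. The Ensembl release and the settings for strand and multimapping are not given in the sources used here. Symbols, biotypes and transcript ends were taken from GENCODE vM21, and promoters from RefSeq.

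Counts were scaled by TMM, filtered with filterByExpr and fitted over the 4 conditions with edgeR 4.0.16 (quasi-likelihood F test) under R 4.3.3, with Benjamini-Hochberg adjustment over all genes tested. Members, lists and comparisons were chosen with earlier results of these data known. The labels name no batch, so none was modelled, and whether there was one is not known. Libraries carry no molecular identifiers, and p-values measure the spread between pools of 3 mice. Replicate libraries differed by more than sampling noise. Named members were those with a fixed role in each complex, the 5 higher and 5 lower with the smallest p in each comparison (those without overlap first), those near the count minimum and those with the largest spread. Scripts were tested on simulated data. Values of some named genes are not reported here. Alternatives were DESeq2 1.42.0, limma 3.58.1, other scaling and filters, and leaving out libraries.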

Additional observations from a re-analysis of the deposited data

How the results depend on the processing

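No member was called under any alternative, which were DESeq2, limma voom with sample quality weights, upper-quartile scaling, at least 10 counts in every library (86 members tested), no filter beyond 1 count, a fit of only the groups compared, leaving out each of the 12 libraries in turn, leaving out KT13 and KT21, and, added after seeing the data, a G+C trend removed with 12 or 10 libraries. The members' median for anti-PD-L1 averaged over GFP ran from 0.054 to 0.10, and that for GFP averaged over treatments from -0.014 to 0.045, on either side of 0. For Ndufa8 the anti-PD-L1 difference in GFP+ cells turned from -0.19 to 0.042 without KT13 and KT21, and to 0.047 with the G+C trend also removed, and for Atp5d the GFP difference averaged over treatments turned from 0.29 to -0.013 and -0.0024. With each library left out in turn, the anti-PD-L1 difference in GFP- cells ran from -0.20 to 0.013 for Ndufaf4, with the positive value without KT16, and from -1.08 to 0.16 for Ndufaf6, with the positive value without KT14. The cause was not tested. The check of direction covered the higher and lower members with the smallest p in each comparison (those without overlap first). The other values of these members kept their direction. Values quoted for other reasons, such as the GFP difference of Ndufs7 in non-treated cells, were not part of this check. Where a condition was left with 2 libraries, their spread was taken from the fit of all conditions. No paired analysis was run, because the labels give each library its own number and pair no libraries. Whether GFP+ and GFP- libraries came from the same mice is not given in the sources used here, and the tests treat them as separate.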

Other observations

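Pseudogenes and non-coding genes with matching names were left out of the members, yet several had sizable counts. Cox6c2, a processed pseudogene of Cox6c, was at 12.4 and 10.6 CPM in KT13 and KT21 and at 53.2 to 72.9 CPM in the other 10 libraries, while Cox6c itself was at 415 and 482 CPM against 388 to 447. Atp5l-ps1 was at 44.6 and 68.6 CPM against 111 to 170.0, with Atp5l at 266 and 366 against 299 to 389, and Ndufb4c was at 7.92 and 8.19 CPM against 21.9 to 37.7, with Ndufb4 at 46.9 and 47.9 against 50.8 to 75.8. In these 3 pairs the pseudogene fell outside the range of the other libraries in both KT13 and KT21. Ndufb4 did so in both as well, Atp5l in KT13 and, upward, Cox6c in KT21. Among the other pseudogenes Ndufab1-ps, Uqcrh-ps1 and Atp5l2-ps lay below the range in both. Ndufs6b did in KT13 only, and Atp5l-ps2 (2.31 and 3.49 CPM) and Ndufa11b stayed inside it. Ndufb1-ps, annotated as a non-coding gene, was at 82.3 and 62.0 CPM against 117 to 159. Reads of a gene and its processed copy are near-identical, so the division of reads between them is uncertain.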
